A study of Mus musculus with 6 samples.

Results

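The 10 genes described here encode the interleukin-1 (IL-1) cytokines Il1a and Il1b and the related cytokine Il18, the natural inhibitors Il1rn, Il18bp and Il1r2, the receptor subunits Il1r1 and Il1rap, and the inflammasome components Nlrp3 and Casp1. They were taken by gene symbol from a table of 55327 rows that carry a symbol, and all 10 were found there and were among the 14987 genes tested. The libraries were made from RNA of macrophages sorted by flow cytometry from mouse calf muscle 3 days after hindlimb ischemia, in which leg muscle is injured by loss of blood flow. The genotype label gives 3 libraries as WT and 3 as pfkfb3-ko (KO below), all on the mixed strain background 129S1/Sv * 129X1/SvJ * C57BL/6 * CBA. Mice of both groups had been injected with 1 mg tamoxifen on each of 5 days, with at least 7 days between treatment and experiment. The design text writes EC beside the deleted gene and the series title names endothelial cells, the genotype label names no cell type, and neither the driver of the deletion, the age of the mice nor any pooling of animals is given in the sources used here. Nothing in the labels states that libraries of a group came from separate mice, so p-values measure only the spread between these libraries, which may be technical.

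IL-1 alpha and IL-1 beta bind the receptor IL-1R1, which signals together with its accessory chain encoded by Il1rap. The IL-1 receptor antagonist (Il1rn) occupies the receptor without signalling, and the decoy receptor IL-1R2 binds the cytokines but cannot signal. IL-1 beta and IL-18 are made as inactive precursors that caspase-1 cuts inside the inflammasome, a protein complex assembled by sensors such as NLRP3, so an mRNA level does not give the amount of active cytokine. In injured muscle, recruited monocytes and macrophages are a known source of IL-1 beta.

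Promoter sequences are shown for both IL-1 ligands, whose levels varied most between libraries, and for Il18 and Il18bp, which moved between groups. They come from RefSeq on GRCm38.p6, whose promoter table held all 10 genes with 14 start sites, and run 5′ to 3′ from 250 bases before to 50 bases after the start. Capitals mark matches, on either strand, to 7 motifs searched: TATAAA (a core promoter element), TGANTCA (AP-1), GAGGAA (core of PU.1, a macrophage transcription factor), TTNNGNAAT (C/EBP), TTCNNNGAA (STAT), AANNGAAA (core of interferon regulatory factor, IRF, sites) and GGNNTTTCC (kappaB). The windows are chr2:129309923-129310222 (minus strand) for Il1a, chr2:129371090-129371389 (minus) for Il1b, chr9:50554450-50554749 (plus) for Il18 and chr7:102018183-102018482 (minus) for Il18bp.
Il1a: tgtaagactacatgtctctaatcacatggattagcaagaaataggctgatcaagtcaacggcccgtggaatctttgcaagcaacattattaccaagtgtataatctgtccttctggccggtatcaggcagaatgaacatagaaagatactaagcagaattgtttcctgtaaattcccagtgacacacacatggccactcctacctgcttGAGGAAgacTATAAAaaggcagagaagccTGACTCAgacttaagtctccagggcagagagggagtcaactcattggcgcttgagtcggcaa
Il1b: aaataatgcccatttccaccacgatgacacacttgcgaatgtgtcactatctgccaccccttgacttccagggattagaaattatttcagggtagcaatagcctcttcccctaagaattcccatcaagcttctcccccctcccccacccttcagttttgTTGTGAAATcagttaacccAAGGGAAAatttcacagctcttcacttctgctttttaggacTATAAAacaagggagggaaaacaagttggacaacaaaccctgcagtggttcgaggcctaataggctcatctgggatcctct
Il18: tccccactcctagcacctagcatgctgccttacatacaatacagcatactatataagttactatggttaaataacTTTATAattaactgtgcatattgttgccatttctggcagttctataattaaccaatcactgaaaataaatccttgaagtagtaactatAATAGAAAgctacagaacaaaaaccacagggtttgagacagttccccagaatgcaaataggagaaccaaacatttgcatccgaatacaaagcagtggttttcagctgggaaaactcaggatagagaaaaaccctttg
Il18bp: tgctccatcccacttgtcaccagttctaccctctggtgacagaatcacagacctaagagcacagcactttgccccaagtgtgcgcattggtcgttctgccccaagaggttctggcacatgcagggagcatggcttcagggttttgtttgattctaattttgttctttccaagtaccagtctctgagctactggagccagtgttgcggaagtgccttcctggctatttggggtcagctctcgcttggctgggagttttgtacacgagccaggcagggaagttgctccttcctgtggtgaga
The windows of Il1a and Il1b each held TATAAA, beginning 32 and 31 bases before the start site. In that of Il1a, GAGGAA began 41 bases and TGACTCA 12 bases before the start site. That of Il1b held a C/EBP match 91 bases and an IRF core 72 bases before it. The window of Il18 held TATAAA on the opposite strand, 175 bases before the start site, and an IRF core 87 bases before it. The window of Il18bp held none of the 7 motifs. No match in these windows overlapped another. Of all 32851 RefSeq promoter windows of the same length, 13.6% held TATAAA, 7.81% TGANTCA, 28.3% GAGGAA, 11.5% TTNNGNAAT, 8.30% TTCNNNGAA, 23.9% AANNGAAA and 5.82% GGNNTTTCC. A match describes letters and does not show that a factor binds there.

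Several features of the libraries bear on every value below, and values given across the replicates of a group are in the order of replicates 1, 2 and 3. Total counts were 18853712 to 29060584, and Gm23935, annotated as a miRNA gene, alone took 13.7% to 16.8% of the counts in WT and 31.6% to 46.3% in KO. Levels are CPM, counts divided by the library size, with that size scaled by TMM, a factor computed from the bulk of genes, which was 1.23 to 1.26 in WT and 0.713 to 0.892 in KO. The median over all genes of the log2 fold change moved from 0.01 to -0.60 with no scaling factor. KO replicates 1 and 2 expressed Xist, a transcript of female cells, at 154 and 171 CPM, against at most 0.47 CPM in the other 4 libraries, and the Y-linked gene Ddx3y was at 60.5 to 69.2 CPM in those 4 and at 0.53 and 0 CPM in KO replicates 1 and 2. By these genes the sexes of the mice differed between the groups, which cannot be told apart from genotype in KO replicates 1 and 2; KO replicate 3 alone is compared with WT below. Pfkfb3 itself was at 70.9, 101 and 82.4 CPM across the WT replicates and 55.5, 59.3 and 160 CPM across the KO replicates (edgeR adjusted p = 0.89), and says nothing of the genotype if the deletion was endothelial. All 8 macrophage markers examined, among them Adgre1, Csf1r and Lyz2, were above 50 CPM in every library, with a summed level of 6140 to 8647 CPM in WT and 8746 to 9075 CPM in KO. Lyz2 made up most of this sum; Csf1r was called higher in KO (log2 fold change 1.05, edgeR adjusted p = 0.010) and Cd68 lower (log2 fold change -0.74, edgeR adjusted p = 0.034). The neutrophil gene Ly6g had 0 counts in all 6 libraries, and 6 of 10 neutrophil markers stayed under 1 CPM throughout.

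In KO, 2 of the 10 genes were called higher and none was called lower. Both that rose belong to the IL-18 arm: Il18, by a log2 fold change of 0.86, and Il18bp, which encodes the soluble protein that captures IL-18, by 1.13. The 8 others, including Il1b, did not pass the test (edgeR quasi-likelihood test with Benjamini-Hochberg adjustment over all genes, called under 0.05). On simulated counts this test recovered 55% of 2-fold and 95% of 4-fold changes, so a gene not called is not shown to be unchanged. The count of 2 called genes dropped to 0 with KO replicates 1 and 2 summed, and was 0 to 2 with 1 library left out. Over all tested genes 6.64% were called, 4.39% higher and 2.25% lower in KO. The 10 genes were chosen with earlier results of these data known, so this share is a background and no test of them. Without adjustment 1 of the 10, Il1b, was lower at a p under 0.05; DESeq2 called none of them lower and limma-voom called 2. The median log2 fold change of the 10 genes was -0.23, against 0.01 over all genes. The libraries of the groups did not overlap for 2 of the 10 genes, again Il18 and Il18bp, against 31.5% of all tested genes, or 16.8% counting only those higher in KO.

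**Figure D1:**
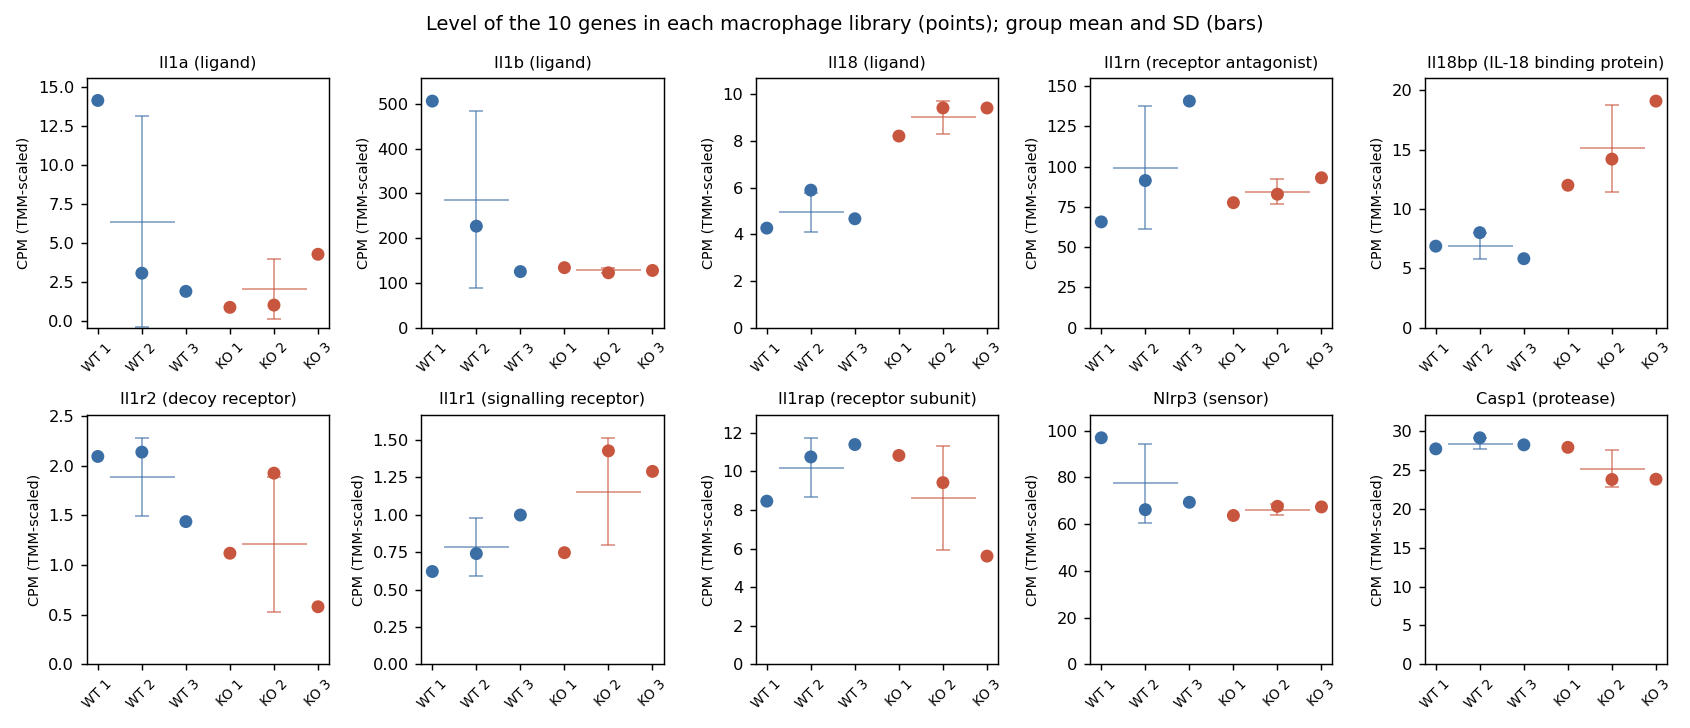
Level of each gene in CPM (TMM-scaled, linear axes) in WT replicates 1 to 3 (blue) and KO replicates 1 to 3 (red); points are libraries, horizontal bars are group means and whiskers are the SD. Il1b runs from 125 to 506 CPM in WT and from 123 to 134 CPM in KO, while for Il18 and Il18bp every KO point lies above every WT point.

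Il1b (ENSMUSG00000027398, chromosome 2, 129364570 to 129371139, GRCm38, minus strand), the main secreted IL-1 of myeloid cells, was at 506, 227 and 125 CPM across the WT replicates and 134, 123 and 128 CPM across the KO replicates. The 3 KO libraries lay within 1.09-fold of each other and the WT libraries spread over 4.04-fold, with WT replicate 3 inside the KO range. The log2 fold change was -1.16 (SE 0.41, 95% interval -2.09 to -0.22, unadjusted p = 0.021, adjusted p = 0.13). It was -0.46 without WT replicate 1 and -1.52 without WT replicate 3, where it was called (edgeR adjusted p = 0.035). The limma-voom fit, which gave WT replicate 1 a weight of 0.48 and WT replicate 2 a weight of 3.52, also called it lower (log2 fold change -0.85, adjusted p = 0.017); this fit called 32.4% of all genes and 4 of the 10 here. In WT replicate 1 the summed level of 8 endothelial markers was 95 CPM, against 61.5 to 63.2 CPM in the other WT libraries and 23.2 to 47.7 CPM in KO. The 6 dendritic cell markers summed to 24.0 CPM in that library and to 7.03 to 13.6 CPM in the other 5. The 10 neutrophil markers summed to 80.7 CPM there, against 42.0 and 61.3 CPM in the other WT libraries and 43.3 to 73.4 CPM in KO. Csf3r made up most of that sum, at 57.7 CPM in WT replicate 1 and 67.9 CPM in KO replicate 3. Mmp8 was at 15.8, 9.68 and 6.57 CPM across the WT replicates and 1.44, 2.14 and 3.42 CPM across the KO replicates and was called lower. S100a8 and Retnlg, neither of them called, were also highest in WT replicate 1, at 2.29 and 4.27 CPM. In the other libraries they reached at most 0.88 and 1.61 CPM. The part of such cells in the level of Il1b was not tested, and fewer cells of a type cannot be told apart from less RNA per cell in bulk libraries.

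Il1a (ENSMUSG00000027399, chromosome 2, 129299610 to 129309972, minus strand), which encodes the IL-1 that cells also hold in the nucleus and on the membrane, had far fewer reads. It was at 14.1, 3.04 and 1.88 CPM across the WT replicates and 0.85, 1.00 and 4.25 CPM across the KO replicates, from 364, 111 and 64 counts and from 16, 14 and 66 counts. WT replicate 1 was again the highest library, and KO replicate 3 stood above WT replicates 2 and 3. The log2 fold change was -1.63 (SE 0.84, adjusted p = 0.28), and it was -0.28 without WT replicate 1, -1.28 and -1.36 without KO replicate 1 or 2, and -2.76 without KO replicate 3. A total of 222 of its 1974 exonic bases are shared with Gm14023 on the opposite strand, which had 4 to 46 counts; the strand setting of the counting is not given in the sources used here. The antisense gene Il1bos, which overlaps 25 exonic bases of Il1b, had 0 to 14 counts.

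Il18 (ENSMUSG00000039217, chromosome 9, 50554827 to 50581840, plus strand) was at 4.27, 5.89 and 4.67 CPM across the WT replicates and 8.21, 9.42 and 9.41 CPM across the KO replicates, from 110 to 215 counts a library. The lowest KO library lay above the highest WT library. The group means were 4.94 ± 0.848 and 9.01 ± 0.695 CPM (SD, n = 3 each), or 0.86 as a log2 fold change (SE 0.20, edgeR adjusted p = 0.041). The direction held in all 16 alternatives, and the call in 7 of them. With 1 library left out, Il18 kept its call only without KO replicate 3 (edgeR adjusted p = 0.047) and lost it in the other 5 leave-outs (adjusted p of up to 0.17), with log2 fold changes of 0.77 to 1.01. With no scaling factor the log2 fold change was 0.24 (edgeR adjusted p = 0.45), which is 0.84 above the median of all genes in that fit. Taking off that median nearly repeats the scaling, so the 0.84 is no separate check.

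Il18bp (ENSMUSG00000070427, chromosome 7, 102014885 to 102018690, minus strand) was at 6.86, 8.0 and 5.81 CPM across the WT replicates and 12, 14.2 and 19.1 CPM across the KO replicates, from 177 to 296 counts a library. Its KO libraries also all lay above its WT libraries, with KO replicate 3 the highest. The means were 6.89 ± 1.1 and 15.1 ± 3.63 CPM (SD, n = 3 each), or 1.13 as a log2 fold change (SE 0.22, edgeR adjusted p = 0.022). The call was held without KO replicate 1 or 3 (edgeR adjusted p = 0.039 and 0.027), and leaving out KO replicate 2 or any 1 of the WT libraries ended it (largest adjusted p 0.077). With no scaling factor the log2 fold change was 0.51 (edgeR adjusted p = 0.11), or 1.11 above the median of all genes, which again is no separate check. The gene shares 80 exonic bases with Numa1 on the opposite strand, which also rose, from 232 ± 12.8 to 343 ± 25.7 CPM (SD, n = 3 each; log2 fold change 0.56, edgeR adjusted p = 0.034), and without a stated strand setting reads of their shared bases cannot be told apart. Markers of other cells changed in the same libraries. The summed level of 6 satellite cell and muscle genes was 6.37 to 9.46 CPM in WT and 36 to 51.8 CPM in KO, with 3 of 5 tested called higher. That of 7 fibroblast genes was 64.3 to 182 CPM in WT and 160 to 222 CPM in KO, with 3 of 6 tested called higher and 1 lower. The WT sum was mostly Pdpn, which fell from 99.0 ± 44.3 to 36.9 ± 7.99 CPM, while the collagen gene Col1a1 rose from 7.61 ± 5.64 to 73.1 ± 14.8 CPM and Col3a1 from 8.68 ± 5.19 to 46.4 ± 3.94 CPM (SD, n = 3 each). That of 7 Ly6C-high monocyte genes was 397 to 545 CPM in WT and 200 to 226 CPM in KO, with 5 of 7 called lower. Their part in the rise of Il18 and Il18bp was not tested.

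**Figure D2:**
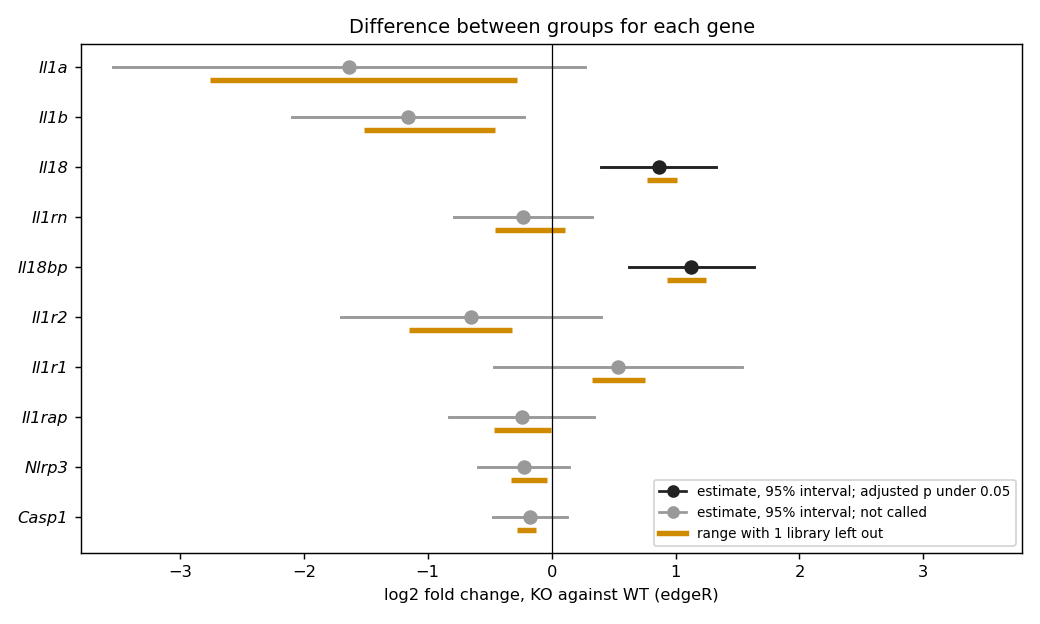
Log2 fold change of KO against WT for each gene (edgeR) with its 95% interval; dark points passed the adjusted threshold of 0.05 and grey points did not, and the orange bar gives the range with 1 library left out. Il18 (0.86) and Il18bp (1.13) are the dark points, and the orange bar of Il1b runs from -1.52 to -0.46.

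DESeq2, on the same 6 libraries, called the same 2 of the 10 genes, Il18 (adjusted p = 0.0058) and Il18bp (adjusted p = 0.00027), where it called 12.7% of all genes. With KO replicates 1 and 2 summed as 1 sample, edgeR gave adjusted p of 0.13 for Il18 and 0.052 for Il18bp. With both left out, KO replicate 3 alone against WT gave log2 fold changes of 0.87 and 1.41 (adjusted p = 0.14 and 0.057), under the assumption that this lone library varies like the others. With no scaling factor 7 of the 10 genes were called lower and none higher, in a fit that called 42.1% of all genes and 40.1% as lower.

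Among the inhibitors of IL-1, Il1rn (ENSMUSG00000026981, chromosome 2, 24336853 to 24351494, plus strand) was at 65.7, 91.4 and 141 CPM across the WT replicates and 77.6, 82.9 and 93.1 CPM across the KO replicates. Within WT its order was the reverse of that of Il1b: replicate 1 was the lowest library for Il1rn and the highest for Il1b, and replicate 3 was the highest for Il1rn and the lowest for Il1b. The KO values fell between the WT extremes, with a log2 fold change of -0.23 (SE 0.25, 95% interval -0.79 to 0.32, adjusted p = 0.62), which turned to 0.10 without WT replicate 3. The decoy receptor gene Il1r2 (ENSMUSG00000026073, chromosome 1, 40074079 to 40125231) was at 2.09, 2.14 and 1.44 CPM across the WT replicates and 1.12, 1.93 and 0.58 CPM across the KO replicates. These rest on 9 to 78 counts a library, the groups overlapped, and the log2 fold change was -0.65 (adjusted p = 0.44), or -1.15 without KO replicate 2 and -0.32 without KO replicate 3.

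The signalling receptor Il1r1 (ENSMUSG00000026072, chromosome 1, 40225080 to 40317257) was near the limit of what these libraries measure, at 14 to 34 counts each. Its levels were 0.62, 0.74 and 1.00 CPM in WT replicates 1 to 3 and 0.75, 1.43 and 1.29 CPM in KO replicates 1 to 3, with a log2 fold change of 0.54 (95% interval -0.47 to 1.54, adjusted p = 0.51), or -0.10 with no scaling factor. Il1rap (ENSMUSG00000022514, chromosome 16, 26581704 to 26730117), whose product also serves the receptors of IL-33 and IL-36, was at 8.45, 10.7 and 11.4 CPM across the WT replicates and 10.8, 9.42 and 5.61 CPM across the KO replicates. The lowest library was KO replicate 3, and the log2 fold change was -0.24 (adjusted p = 0.62), or -0.0047 without KO replicate 3, -0.46 without KO replicate 1 and -0.92 with KO replicates 1 and 2 left out (adjusted p = 0.13).

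The inflammasome genes were the steadiest of the abundant ones. Casp1 (ENSMUSG00000025888, chromosome 9, 5298517 to 5307265) was at 27.7, 29.1 and 28.2 CPM across the WT replicates and 27.9, 23.8 and 23.8 CPM across the KO replicates, a log2 fold change of -0.17 (95% interval -0.47 to 0.13, adjusted p = 0.48). Nlrp3 (ENSMUSG00000032691, chromosome 11, 59541568 to 59566956) was at 96.9, 66.2 and 69.3 CPM across the WT replicates and 63.7, 67.6 and 67.4 CPM across the KO replicates. WT replicate 1 stood apart here too, and the other 5 libraries lay between 63.7 and 69.3 CPM. The log2 fold change of Nlrp3 was -0.23 (95% interval -0.59 to 0.14, adjusted p = 0.44), and -0.034 without WT replicate 1.

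Divided by exonic length, so that genes can be compared, Il1b had the highest level in both groups, at 150 ± 104 CPM per kb in WT and 67.3 ± 3.02 CPM per kb in KO (SD, n = 3 each). Nlrp3, Casp1 and Il1rn followed in WT at 19.1 ± 4.17, 18.9 ± 0.480 and 17.9 ± 6.89 CPM per kb, and did not differ from each other beyond their spread. In KO the same 3 genes lay at 15.3 to 16.8 CPM per kb. Il18 came next at 4.79 ± 0.822 in WT and 8.74 ± 0.674 in KO, followed by Il1a and Il18bp, with means of 3.21 ± 3.42 and 2.28 ± 0.362 CPM per kb in WT and 1.03 ± 0.974 and 4.99 ± 1.20 in KO. Il1a lay above Il18bp only in WT replicate 1, at 7.15 against 2.27 CPM per kb, and below it in the other 5 libraries. Il1r2 and Il1rap were at 0.991 ± 0.205 and 0.897 ± 0.136 CPM per kb in WT and overlapped in both groups. Il1r1 was the lowest, at 0.124 ± 0.0303 in WT and 0.181 ± 0.0565 in KO.

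Ratios within a library do not depend on how libraries are scaled, and 4 were compared (exact two-sided permutation test over 6 libraries, whose smallest possible p is 0.1). The ratio of Il1rn to Il1b, per kb, was 0.0447, 0.139 and 0.387 across the WT replicates and 0.199, 0.233 and 0.251 across the KO replicates. The KO libraries were alike and lay inside the WT spread. The SD of the log2 ratio was 0.17 in KO against 1.56 in WT (n = 3 per group), and this difference in spread was not tested. The log2 difference between the group means was 0.76 (exact permutation p = 0.6), and it turned to -0.032 without WT replicate 1. The ratio of Il18bp to Il18 was 0.548, 0.463 and 0.424 across the WT replicates and 0.498, 0.514 and 0.691 across the KO replicates, a log2 difference of 0.24 (n = 3 each, exact permutation p = 0.3), or 0.09 without KO replicate 3. The ranges of the groups overlapped, so a difference in the balance of the IL-18 pair was not detectable while both genes rose.

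The ratio of Il1a to Il1b was 0.0269, 0.0130 and 0.0145 across the WT replicates and 0.00614, 0.00786 and 0.0321 across the KO replicates (log2 difference -0.57, n = 3 each, exact permutation p = 0.6). KO replicates 1 and 2 were below every WT library and KO replicate 3 above them all, and the log2 difference was -1.30 without KO replicate 3, -0.11 and -0.29 without KO replicate 1 or 2 and -0.24 without WT replicate 1. The ratio of the decoy to the signalling receptor, Il1r2 to Il1r1, was 11.3, 9.63 and 4.81 across the WT replicates and 5.00, 4.50 and 1.5 across the KO replicates. The groups overlapped through WT replicate 3 (log2 difference -1.32, n = 3 each, exact permutation p = 0.2), the difference was -0.76 without KO replicate 3, and the ratio rests on as few as 9 counts. After adjustment over the 4 ratios by Benjamini-Hochberg every p from this permutation test was 0.6.

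**Figure D3:**
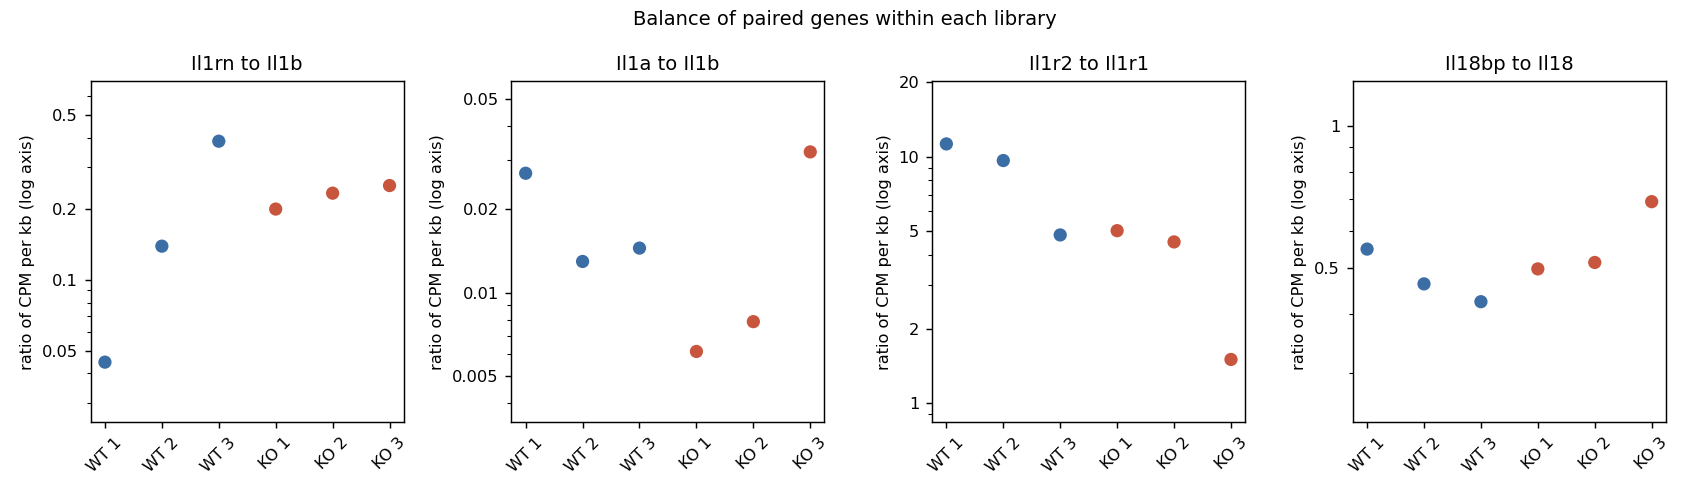
Ratio of length-scaled levels for 4 pairs of genes within each library, on log axes, with WT in blue and KO in red. The Il1rn to Il1b ratio runs from 0.0447 to 0.387 across WT and from 0.199 to 0.251 across KO.

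The genes most like Il1b across the 6 libraries, by the root mean square difference of log2 CPM centred on each gene's mean among 10960 other genes with a mean of at least 50 counts, were Nedd9 (0.19), Ptgs2 (0.21), Srgn (0.23), Gcnt2 (0.24) and Runx2 (0.25). Ptgs2, which encodes the inducible cyclooxygenase, was at 206, 113 and 82.3 CPM across the WT replicates and 71.5, 69.0 and 64.0 CPM across the KO replicates. Of the 5, Gcnt2, a glycosyltransferase gene, was called lower in KO (log2 fold change -1.35, edgeR adjusted p = 0.041). All 5 were highest in WT replicate 1, which follows from choosing them by their likeness to Il1b. The genes most like Il1rn were Wdr4 (0.08), Psd3 (0.09), Pprc1 (0.10), Slc20a1 (0.10) and Qtrt2 (0.12). Each was highest in WT replicate 3, again through the choice, and none of them was called by edgeR (adjusted p of 0.42 to 0.71). Psd3, for example, was at 60.2, 72.3 and 120 CPM across the WT replicates and 62.8, 68.6 and 70.3 CPM across the KO replicates.

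**Figure D4:**
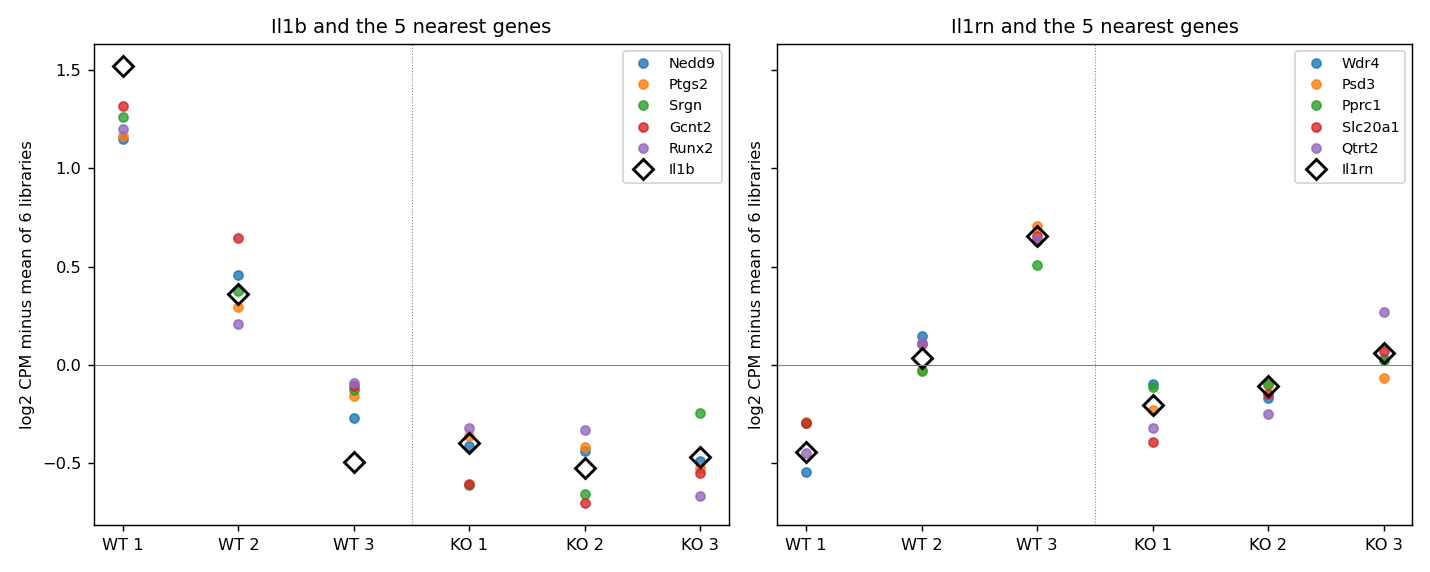
Log2 CPM minus the gene's mean over 6 libraries for Il1b (left, diamonds) and Il1rn (right, diamonds) and the 5 genes nearest to each (points). The Il1b group peaks in WT replicate 1 and the Il1rn group in WT replicate 3, which follows from how the near genes were chosen.

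In the rest of the pathway, 10 of 60 tested genes from 6 lists were called, 6 higher and 4 lower in KO, with a median log2 fold change of -0.11. Over all tested genes 4.39% were called higher and 2.25% lower. The lists were chosen with earlier results of these data known, so these shares are a background and no test of any list. No gene of the remaining list, the other IL-1 family ligands, was abundant enough to test. Of the other receptors, edgeR called none of 4 tested genes (DESeq2 and limma-voom each called 1, and 1 was under 0.05 before adjustment). Il18rap, a subunit of the IL-18 receptor, was at 5.86, 3.45 and 2.67 CPM across the WT replicates and 1.97, 2.07 and 1.22 CPM across the KO replicates, with no overlap (log2 fold change -1.18, adjusted p = 0.10), while its partner Il18r1 had 0 to 9 counts a library. The IL-36 receptor gene Il1rl2 was highest in WT replicate 1, at 13 CPM against 3.90 to 6.58 CPM in the other 5 libraries, and the IL-33 receptor gene Il1rl1 was at 3.35 to 5.89 CPM throughout. Of 16 genes that carry the signal from the receptor, edgeR called none, against 1 by DESeq2 and 5 by limma-voom, and 3 were under 0.05 before adjustment. The most abundant of them, Tab2, Ikbkb and Irak1, were at 125 to 171, 87.7 to 126 and 69.2 to 77.2 CPM across all libraries.

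Of 14 tested genes of inflammasome sensing and assembly, 2 were called higher and none lower, against 4.39% and 2.25% of all genes. Without adjustment 1 was lower at a p under 0.05, DESeq2 called none lower and limma-voom called 5. Nlrc4, the sensor partner of the NAIP receptors for bacterial proteins, was at 5.35, 8.0 and 6.40 CPM across the WT replicates and 12.5, 10.4 and 17.5 CPM across the KO replicates (log2 fold change 1.03, edgeR adjusted p = 0.041). P2rx7, the ATP-gated channel that can trigger NLRP3, was at 55.6, 53.5 and 39.0 CPM across the WT replicates and 77.1, 77.2 and 85.4 CPM across the KO replicates (log2 fold change 0.69, edgeR adjusted p = 0.034). Each had all KO libraries above all WT libraries. Txnip, Nek7 and Naip2 were not called. Txnip was at 133, 126 and 82.1 CPM across the WT replicates and 170, 161 and 218 CPM across the KO replicates, with no overlap. Its log2 fold change was 0.69 (edgeR adjusted p = 0.078). Nek7 and Naip2 were at 88.9 to 126 and 50.1 to 71.0 CPM across all libraries.

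Of 8 genes of inflammatory caspases and pore formation, 2 were called higher and none lower, again against 4.39% and 2.25% of all genes. Without adjustment 1 was lower at a p under 0.05, and DESeq2 and limma-voom each called 1 lower. Gsdmd, whose product forms the membrane pore through which IL-1 beta leaves the cell, was at 47.5, 49.2 and 55.1 CPM across the WT replicates and 72.5, 77.7 and 73.0 CPM across the KO replicates (log2 fold change 0.56, edgeR adjusted p = 0.030); with no scaling factor its log2 fold change was -0.061. Casp12, a caspase linked to stress of the endoplasmic reticulum in the mouse, had 5 to 9 counts per WT library and 11 to 24 per KO library (log2 fold change 2.26, edgeR adjusted p = 0.042). Chmp4b, Ninj1 and Casp8, which take part in membrane repair, membrane rupture and cell death, were not called. Chmp4b and Casp8 lay at 243 to 324 and 67.0 to 86.1 CPM. Ninj1 was at 110, 91.4 and 78.2 CPM across the WT replicates and 136, 128 and 115 CPM across the KO replicates, with no overlap. Its log2 fold change was 0.44 (edgeR adjusted p = 0.12). Among enzymes tied to other routes of IL-1 processing, 1 of 3 tested genes was called higher and none lower, against 4.39% and 2.25% of all genes. Without adjustment 1 was lower at a p under 0.05, DESeq2 called none lower and limma-voom called 1. The gene that rose was Ctsc, the gene of cathepsin C, which activates neutrophil serine proteases rather than cutting IL-1. It was at 408, 523 and 417 CPM across the WT replicates and 806, 763 and 667 CPM across the KO replicates. Its log2 fold change was 0.73 (edgeR adjusted p = 0.030). The calpain genes Capn2 and Capn1 were not called, with KO replicate 3 the lowest library for both. Capn2 was at 234, 283 and 331 CPM across the WT replicates and 217, 214 and 124 CPM across the KO replicates, with no overlap. Its log2 fold change was -0.61 (edgeR adjusted p = 0.15). Capn1 was at 44.7 to 67.4 CPM. Of the neutrophil protease genes of this list, Elane had 0 counts in every library and Prtn3 had 1 to 9. Ctsg had 14, 18 and 13 counts across the WT replicates and 0, 1 and 0 across the KO replicates, and was not tested.

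Of 15 tested genes that IL-1 induces in many cell types, 4 fell and 1 rose, where 2.25% of all genes were called lower and 4.39% higher, with a median log2 fold change of -0.55 against 0.01 over all genes. The Ly6C-high monocyte markers given above, 5 of 7 called lower, fell in the same libraries, and their part in this list's values was not tested. The chemokine gene Cxcl2 was at 170, 165 and 213 CPM across the WT replicates and 83.6, 78.0 and 116 CPM across the KO replicates (log2 fold change -0.98, edgeR adjusted p = 0.018). Cxcl3, a related chemokine gene, fell from 3.25 ± 0.776 to 0.823 ± 0.369 CPM (SD, n = 3 each; log2 fold change -1.97, edgeR adjusted p = 0.026). Ccl2 and Tnf, which other signals induce as well, fell by 2.31 and 1.08 on the log2 scale. Birc3, an inhibitor of cell death, rose from 55.6 ± 7.23 to 96.0 ± 9.42 CPM (SD, n = 3 each; log2 fold change 0.79, edgeR adjusted p = 0.016). The 3 most abundant genes of this list, the NF-kappaB regulators Nfkbia, Tnfaip3 and Nfkbiz, were not called; Nfkbia was at 603, 456 and 542 CPM across the WT replicates and 375, 368 and 349 CPM across the KO replicates (log2 fold change -0.55, edgeR adjusted p = 0.056). Of the 15 genes, 9 were highest in WT replicate 1, as Il1b was, among them Cxcl3, Cxcl1 and Ptgs2. Another 3, which were Cxcl2, Ccl2 and Tnf, were highest in WT replicate 3. WT replicate 1 was also highest for 9 of 16 signalling genes and 3 of 4 other receptors. It was highest for 3 of 14 inflammasome genes, 1 of 8 caspase and pore genes and 0 of 3 other enzymes. The share over all tested genes was not computed. Of these 10 called genes, Ccl2 and Tnf kept their call in all 6 leave-outs, P2rx7, Cxcl2 and Birc3 in 2, Gsdmd, Ctsc and Cxcl3 in 1, and Nlrc4 and Casp12 in none (edgeR adjusted p of up to 0.11 and 0.15). With no scaling factor, Casp12 alone of those called higher kept its call (edgeR adjusted p = 0.042). The log2 fold changes of P2rx7, Ctsc, Birc3 and Nlrc4 were then 0.081, 0.12, 0.17 and 0.43, and Gsdmd turned negative. The 4 genes called lower stayed called in that fit.

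**Figure D5:**
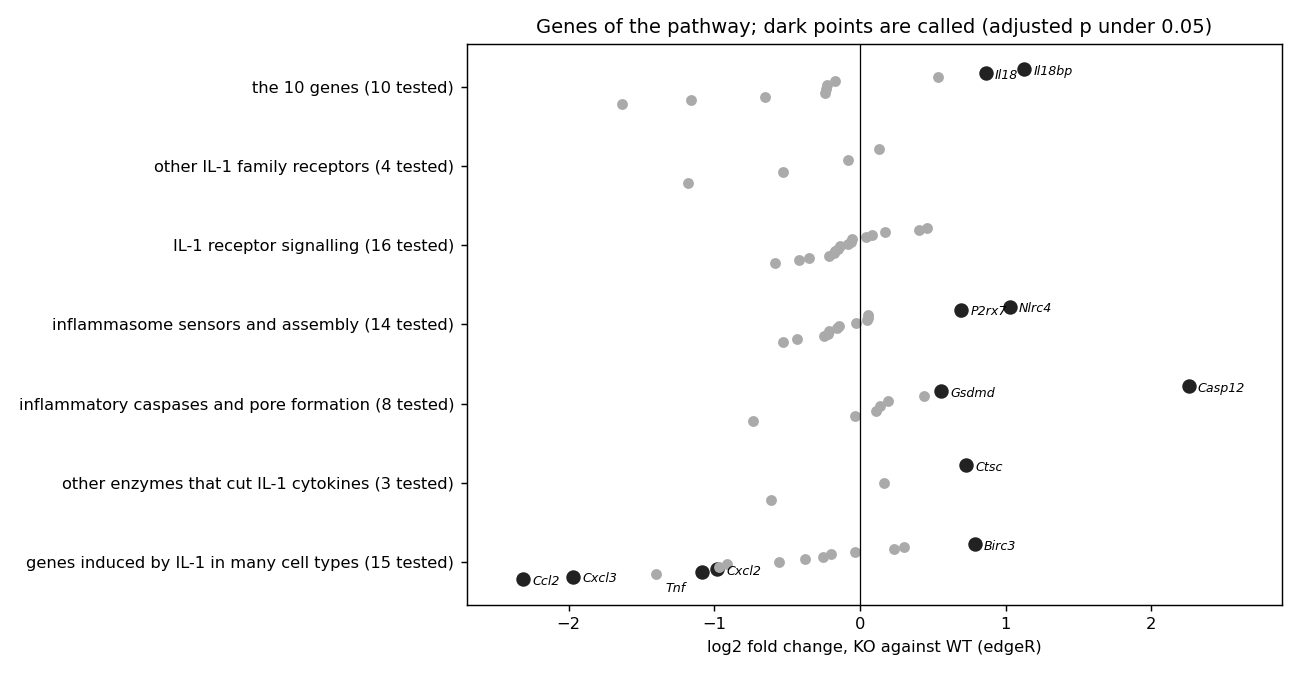
Log2 fold change of KO against WT (edgeR) for each tested gene of the 10 described and of 6 pathway lists; dark, named points passed the adjusted threshold of 0.05. The called genes of the inflammasome, caspase and protease lists lie to the right of 0, from 0.56 (Gsdmd) to 2.26 (Casp12), and 4 of the 5 called genes of the IL-1-induced list lie to the left.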

How the data were processed

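RNA of 7000 to 50000 sorted cells per sample was made into libraries with the SMARTer low-input kit, per the labels' protocols. The authors deposited whole-number read counts per gene; Trim Galore, FastQC, HISAT2, featureCounts and DESeq and the build GRCm38 are named, per the submitters' processing notes, without versions, annotation or strand setting. Of 55353 rows, 26 had symbols turned into dates (0.0913% to 0.163% of a library's counts) and were left out. Replicates were numbered in record order within a group.

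Genes kept by filterByExpr were tested with the edgeR 4.0.16 quasi-likelihood test (R 4.3.3, TMM factors, no covariate, 3 KO against 3 WT, two-sided), called at a Benjamini-Hochberg adjusted p under 0.05. SE and 95% intervals derive from its F statistic. The test was checked on simulated counts with 200 altered genes. Alternatives used DESeq2 1.42.0, limma-voom 3.58.1 with sample weights, other scalings and filters, left-out or summed libraries, a replicate block and protein-coding genes alone. Levels per kb use exonic lengths of GENCODE M21 (GRCm38), matched by symbol. Library totals, given in the report, include Gm23935, so they overstate the depth for other genes, more so in KO. Protein-coding genes held 16976422, 22726111 and 21131907 counts across the WT replicates and 12407034, 9231957 and 9168139 across the KO replicates.

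Text names the 10 given genes, every called gene and the 3 most abundant others of each pathway list, and the 5 nearest genes of Il1b and Il1rn. The members and lists were chosen with earlier results of these data known.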

Additional observations from a re-analysis of the deposited data

How the results depend on the processing

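Il18 kept its direction in all 16 alternatives and its call in 7, and Il18bp in 16 and 8; their adjusted p ranged from 0.0058 to 0.45 and from 0.00017 to 0.11. Il1b kept its direction in 16 and was called in 4, with an adjusted p of 3.9e-10 to 0.32. Of all 399 recomputed values, 261 kept their direction and their side of the threshold or stayed within the stated range.

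The count of called members, 2 in the report, both higher, was 7 with no scaling factor, all lower. It was 4 with no count filter and 4 with limma-voom, each with 2 higher and 2 lower. It was 0 with KO replicates 1 and 2 summed and 0 to 2 with 1 library left out. The count over the pathway lists, 10 in the report, was 6 higher and 4 lower. With no scaling factor it was 39, of which 1 was higher and 38 lower. It was 19 with no count filter (6 higher), 16 with DESeq2 (7 higher) and 31 with limma-voom (12 higher). With KO replicates 1 and 2 summed it was 2, none higher. With 1 library left out it was 2 to 13. Of these, 2 were higher without WT replicate 1, 4 without KO replicate 3 and none in the other leave-outs. The count over all genes, 995, was 6308 with no scaling factor, 1957 with no count filter, 1870 with DESeq2, 4850 with limma-voom, 282 with the KO pair summed, 149 with it left out and 189 to 1652 with 1 library left out.

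With a replicate block taken from the endings of the titles, 267 genes were called in all. These held 3 genes of the pathway lists, all lower, and 0 of the members (edgeR adjusted p = 0.10 for Il18 and 0.083 for Il18bp). Libraries with the same ending deviated from their group means with correlations of 0.02, -0.06 and -0.09, which showed no pairing. Deviations of 3 libraries from their own mean are tied to each other, so this check cannot exclude a shared batch. Not every library correlated best with its own number: WT replicate 2, for example, correlated at 0.10 with KO replicate 3.

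Values that changed sign were the log2 fold changes of Il1rn, which with 1 library left out ranged from -0.46 (WT replicate 1) to 0.10 (WT replicate 3) and was -0.85 and called with no scaling factor, of Il1r1 with no scaling factor (-0.10) and of Gsdmd with no scaling factor (-0.061), and the log2 difference in the Il1rn to Il1b ratio, which ranged from -0.032 without WT replicate 1 to 1.52 without WT replicate 3. The cause was not tested. Depth limits Il1r1, Il1r2, Casp12 and, in KO, Il1a, each at under 100 counts a library there.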
